A study of Homo sapiens with 10 samples.

Results

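Axon guidance ligands and receptors were followed from human embryonic stem cells (ESCs) to neuroectodermal cells (NECs). The set comprised 60 listed genes: 14 Eph receptors, 8 ephrins, 20 semaphorins, 9 plexins, 2 neuropilins, 3 Slits and 4 Robos. Members were taken by gene symbol, and 59 of them were among the 31017 genes of the count table, while SEMA3B was not analysed here. Their promoters were the HindIII fragments, or baits, that hold the annotated gene start. The 57 genes with a bait started in 56 of 21833 baits, with EFNA3 and EFNA4 in the same bait. SEMA4B and SEMA6D started in no bait. Exactly 1 gene of the count table started in 42 of the 56 baits. Contacts of the other baits cannot be assigned to 1 gene.

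The ESCs were the line H9 in undifferentiated culture, and the NECs were differentiated from the same line and harvested on day 7, so that all values come from 1 genetic background. Promoter Capture Hi-C (PCHi-C), which pulls promoter fragments out of a library of ligated chromosome contacts, and RNA sequencing were each available for 2 biological replicates of each cell type. For PCHi-C the authors also called interactions on both replicates combined, and these are named merged calls below.

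Axon guidance molecules are cell surface or secreted proteins that attract or repel growing axons and migrating cells. Ephrins are membrane-bound ligands of Eph receptor tyrosine kinases and signal on contact between cells. Semaphorins act through plexins, with neuropilins as co-receptors for most secreted class 3 semaphorins, and secreted Slits act through Robo receptors. All of these families also work well before axons form, in the boundaries of the early neural plate and in cell migration.

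RNA-seq totals ranged from 19234087 to 25356382 counts per library. The NECs matched their label, since 10 of 10 neuroectoderm markers rose and 10 of 10 pluripotency markers fell. Summed pluripotency marker levels were 5443 and 6000.2 CPM (counts scaled to the size of the library) in the ESC libraries, whereas NEC replicate 1 had 415 and NEC replicate 2 had 807. Neural crest markers summed to 131 and 129 CPM in ESCs and to 227 and 81.8 CPM in the NEC libraries 1 and 2, with 6 of 10 called higher and 1 lower. Of the other marker lists, 8 of 9 tested mesendoderm genes fell and 5 of 9 tested genes of postmitotic neurons rose. The endothelial list had 2 higher and 1 lower of 7. Its sum nevertheless fell, from 221 and 283 CPM in ESCs to 69.0 and 105 in NECs. The epidermal and placodal list had 3 higher and 1 lower of 6, with TP63, KRT5 and KRT14 at 3 counts or fewer in every library. That list summed to 113 and 88.6 CPM in ESCs and to 57.7 and 57.5 in NECs. The ESC libraries shared a sequencing lane and the NEC libraries a different one, and lane and cell type cannot be told apart. In these bulk samples, a change in the share of cells that express a gene and a change in RNA per cell cannot be told apart either.

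More guidance genes were higher than lower in NECs. Of the 58 members tested, 22 were called higher, at an adjusted p under 0.05 and a log2 fold change above 1.5, and 5 were called lower (edgeR's quasi-likelihood test with Benjamini-Hochberg adjustment over 17564 genes). Among all tested genes, 11.4% were called higher and 9.68% lower. On adjusted p alone, 32 members were higher and 11 lower, where the shares over all genes were 31.5% and 29.7%, and 15 members did not pass. The median log2 fold change was 0.76 over the members and 0.01 over all tested genes, and it was above 0 for 70.7% and 50.7% of them. Without ESC replicate 1, the members called lower numbered 3 instead of 5.

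**Figure D1:**
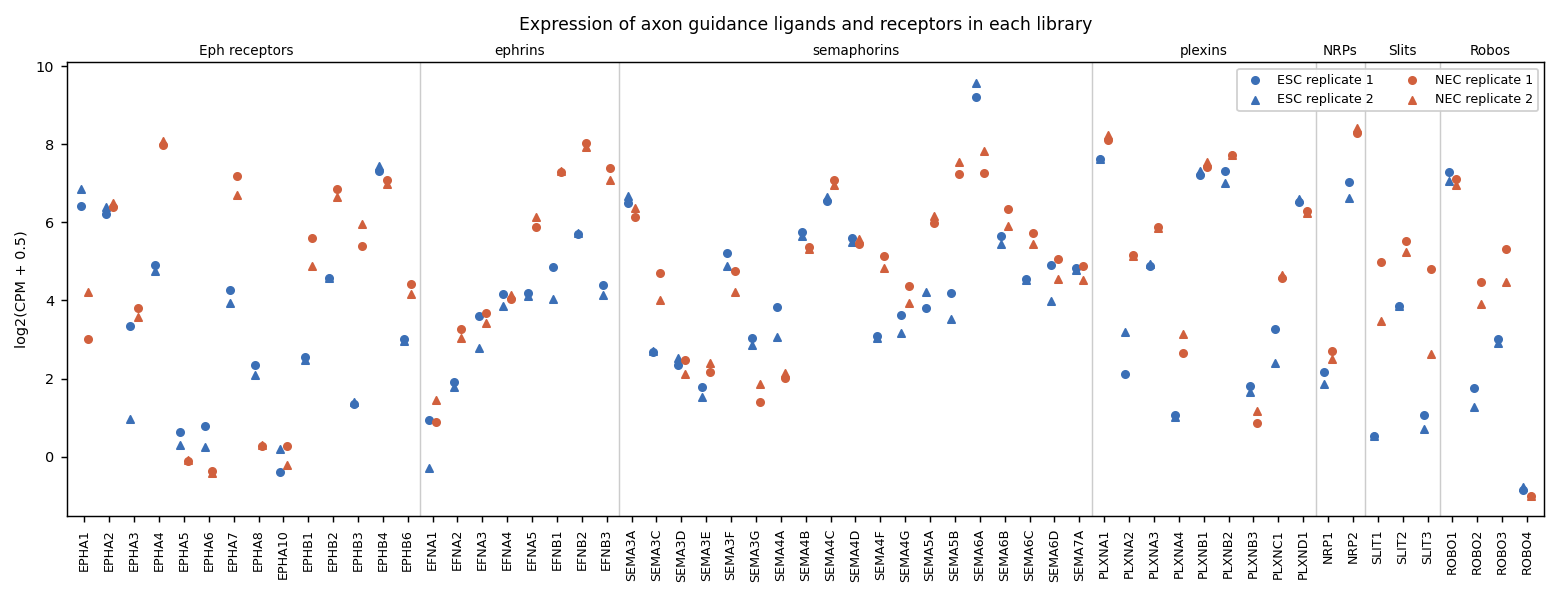
Expression of the 59 members in each library as log2(CPM + 0.5), grouped by family, with ESC libraries in blue, NEC libraries in orange, circles for replicate 1 and triangles for replicate 2. The orange points of EPHA4, EPHB3, EFNB1, SEMA5B and SLIT1 lie far above the blue ones, those of SEMA6A and EPHA1 lie below, and the points of ROBO1, EPHA2 and SEMA4D lie close together.

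Among the Eph receptors, 5 of 14 were called higher and 3 lower. EPHB3, a receptor for B-class ephrins, had 39 and 53 counts in the ESC libraries and 894 and 1507 in the NEC libraries. This was the largest rise of any member, with a log2 fold change of 4.61 ± 0.24 (SE, n = 2 libraries per cell type, edgeR adjusted p = 3.70e-05). EPHB3 lies within the annotated span of EIF2B5 on the same strand, whose own counts were 1234 and 1787 in ESCs and 1354 and 1448 in NECs, and reads shared by overlapping genes could not be separated. The 250 bases before its RefSeq start (GRCh38.p14), found unchanged in the bait at chr3:184279323-184279572 of GRCh37 on the plus strand, are shown because this promoter carried most contacts of any member in NECs, with the letters GGGCGG, or CCGCCC for the other strand, in capitals.
EPHB3 promoter: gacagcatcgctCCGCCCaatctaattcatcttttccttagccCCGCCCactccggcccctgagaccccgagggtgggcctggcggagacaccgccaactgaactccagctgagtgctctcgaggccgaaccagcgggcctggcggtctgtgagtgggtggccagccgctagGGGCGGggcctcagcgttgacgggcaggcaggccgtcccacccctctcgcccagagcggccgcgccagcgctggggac

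EPHA4, which binds ephrins of both classes, was the Eph receptor with the highest level per transcript length in NECs. It rose from 552 and 653 counts to 5416 and 6700, a log2 fold change of 3.24 ± 0.10 (edgeR adjusted p = 1.21e-05). In CPM per kilobase of exon, the unit of all levels per length here, its mean went from 3.68 to 34.8. Both NEC libraries were thus far above both ESC libraries.

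EPHA7, EPHB1 and EPHB2, which bind A-class or B-class ephrins as their names say, also rose. EPHA7 had 354 and 363 counts in ESCs and 3110 and 2569 in NECs (log2 fold change 2.90 ± 0.20, edgeR adjusted p = 9.80e-05). EPHB1 had 102 and 125 counts in ESCs and 1021 and 718 in NECs (log2 fold change 2.88 ± 0.26, edgeR adjusted p = 0.000245). EPHB2 had 441 and 578 counts in ESCs and 2445 and 2473 in NECs (log2 fold change 2.20 ± 0.11, edgeR adjusted p = 2.97e-05). In each of the 3 receptors both NEC libraries lay well above both ESC libraries. The kinase-inactive receptor EPHB6 was higher by less, with 144 and 180 counts against 448 and 426 (log2 fold change 1.36 ± 0.16, edgeR adjusted p = 0.000700).

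In the opposite direction, EPHA1, the first described Eph receptor and known from epithelia, fell from 1602 and 2821 counts to 162 and 446, a log2 fold change of -2.95 ± 0.37 (edgeR adjusted p = 0.000863). The higher NEC value was in NEC replicate 2, where the pluripotency markers were also higher; whether the 2 are linked was not tested. EPHA1 overlaps the genes ZYX and AC092214.10 on the opposite strand, and the counting did not use strand. EPHA8 fell from 87 and 92 counts to 15 and 18 (log2 fold change -2.53 ± 0.30, edgeR adjusted p = 0.000660). EPHA6 was called lower on very few reads, 23 and 17 counts against 6 and 6 (log2 fold change -1.82 ± 0.48, edgeR adjusted p = 0.0156), and the call was lost with DESeq2 (adjusted p = 0.0935), without ESC replicate 1 and without NEC replicate 2.

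EPHB4, a receptor of EFNB2, was the Eph receptor with the highest level per length in ESCs, at 25.6 against 20.2 in NECs. Its counts of 2983 and 4248 in ESCs and 2883 and 3075 in NECs gave a log2 fold change of -0.35 ± 0.09, which passed the adjusted p (0.0172, edgeR) but not the fold threshold. EPHA2, EPHA3, EPHA5 and EPHA10 did not pass the test. EPHA2 had 1396 and 2055 counts in ESCs and 1789 and 2201 in NECs, and EPHA5 had only 20 and 18 against 9 and 11. EPHA3 had 182 counts in ESC replicate 1, only 36 in ESC replicate 2, and 287 and 283 in NECs, and without ESC replicate 1 its log2 fold change of 1.20 became 3.07 and was called.

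Of the ephrins, all 3 of the transmembrane B class were called higher, together with 1 of 5 of the lipid-anchored A class. EFNB1 rose from 537 and 392 counts to 3353 and 3930 (log2 fold change 2.85 ± 0.25, edgeR adjusted p = 0.000231). EFNB2 rose from 974 and 1287 counts to 5605 and 5989 (log2 fold change 2.28 ± 0.09, edgeR adjusted p = 1.62e-05). EFNB3 rose from 386 and 422 counts to 3573 and 3330 (log2 fold change 3.01 ± 0.15, edgeR adjusted p = 3.39e-05). Per length these 3 ligands reached similar levels in NECs, at 47.9 for EFNB1, 50.5 for EFNB2 and 47.0 for EFNB3, from 6.71, 10.4 and 5.83 in ESCs. EFNB2 was the highest ephrin per length in NECs.

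Within the A class, EFNA5, a ligand of several EphA receptors, rose from 333 and 415 counts to 1249 and 1710 (log2 fold change 1.89 ± 0.12, edgeR adjusted p = 7.47e-05). EFNA2 was higher without reaching the fold threshold, with 61 and 73 counts against 195 and 189 (log2 fold change 1.44 ± 0.21, edgeR adjusted p = 0.00161). It lies within the annotated span of MUM1 on the same strand, so its shared reads are uncertain. MUM1 itself had 1094 and 1669 counts in ESCs and 1656 and 1853 in NECs. EFNA4 was the highest ephrin per length in ESCs, at 12.5 against 13.1 in NECs, and its 328, 347, 337 and 422 counts did not pass the test. EFNA3, which overlaps EFNA4 on the same strand so that shared reads are uncertain, and EFNA1 did not pass either. EFNA1 had 27 and 8 counts in ESCs and 29 and 55 in NECs, and it was called higher only when ESC replicate 1 was left out (log2 fold change 2.44).

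**Figure D2:**
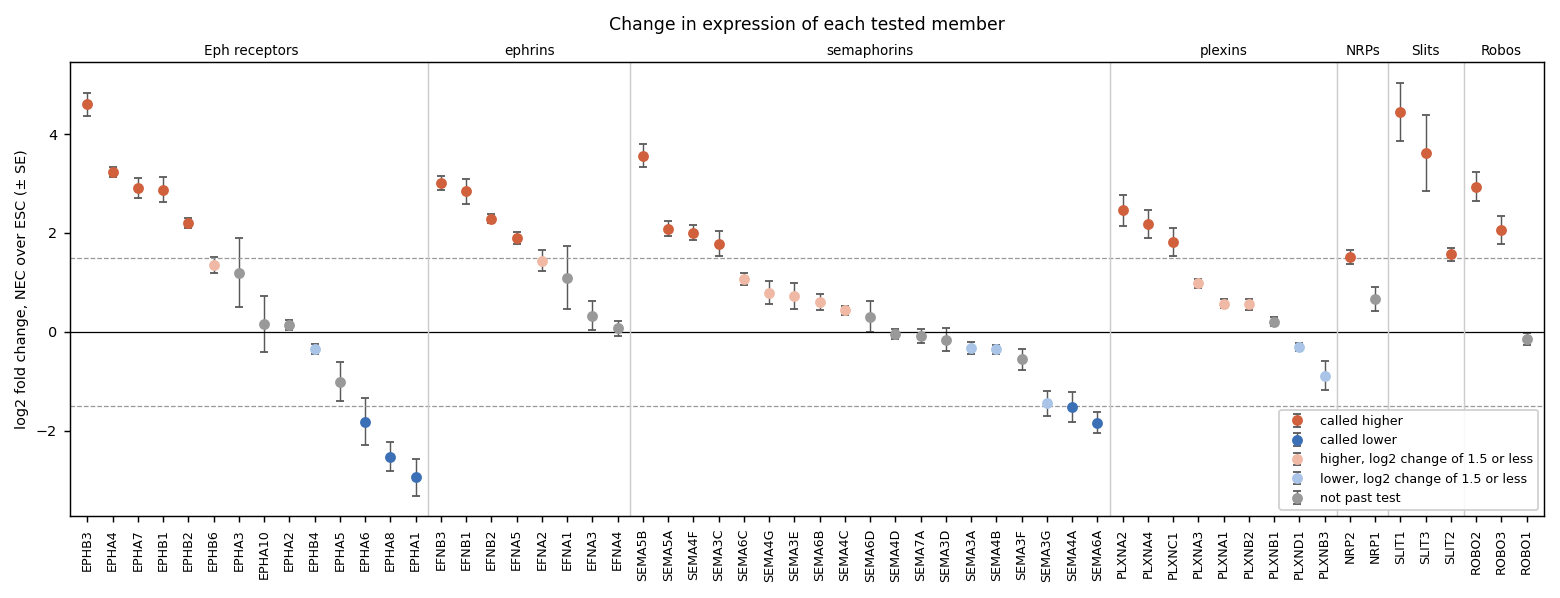
Log2 fold change (NEC over ESC, vertical axis) of the 58 tested members with its standard error, ordered within each family, with dashed lines at the fold threshold of 1.5 in either direction. Called members are in full orange and blue, members past the adjusted p alone in pale colours, and the others in grey; the Slits and ephrins have no point in blue, and the semaphorins spread from 3.56 for SEMA5B to -1.84 for SEMA6A.

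Of the 19 semaphorins measured, 4 were called higher and 2 lower, and the median log2 fold change was 0.31. SEMA5B, a transmembrane semaphorin with thrombospondin repeats, rose from 333 and 271 counts to 3213 and 4571 (log2 fold change 3.56 ± 0.23, edgeR adjusted p = 8.17e-05). Its class 5 partner SEMA5A rose from 255 and 447 counts to 1351 and 1768 (log2 fold change 2.09 ± 0.16, edgeR adjusted p = 0.000134). Both class 5 genes were separated between cell types in every library, with SEMA5B the further of the pair.

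SEMA4F, a transmembrane semaphorin, rose from 151 and 189 counts to 742 and 693 (log2 fold change 2.00 ± 0.15, edgeR adjusted p = 0.000138). The secreted SEMA3C rose from 111 and 150 counts to 547 and 386 (log2 fold change 1.78 ± 0.25, edgeR adjusted p = 0.00140). SEMA3C was the only class 3 semaphorin called higher, and without NEC replicate 1 its log2 fold change of 1.39 was under the threshold. SEMA3E, whose receptor is PLXND1, was higher on adjusted p alone, with 56 and 59 counts against 86 and 118 (log2 fold change 0.72, edgeR adjusted p = 0.0448).

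SEMA6A, a transmembrane ligand of PLXNA2 and PLXNA4, was the highest semaphorin per length in ESCs and the highest member of any family there, at 61.8. Its counts of 11135 and 18718 in ESCs dropped to 3240 and 5559 in NECs (log2 fold change -1.84 ± 0.22, edgeR adjusted p = 0.000653). Even so its level per length in NECs, 17.3, was near that of SEMA4C, which led the family there at 20.7. As for EPHA1, the higher NEC value was in replicate 2, and SEMA6A overlaps 2 listed transcripts on the opposite strand.

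SEMA4A fell from 258 and 193 counts to 76 and 96 (log2 fold change -1.52 ± 0.30, edgeR adjusted p = 0.00516). This call sat at the edge of the threshold: the log2 fold change was -1.46 when scaled by library size alone, -1.09 without ESC replicate 1 and -1.45 without NEC replicate 1. SEMA4C had 1738 and 2472 counts in ESCs and 2900 and 3044 in NECs (log2 fold change 0.43 ± 0.10, edgeR adjusted p = 0.00803). Of the remaining semaphorins, SEMA4G, SEMA6B and SEMA6C were higher and SEMA3A, SEMA3G and SEMA4B lower on adjusted p alone, with log2 fold changes from -1.45 for SEMA3G to 1.07 for SEMA6C. SEMA6B, which is named again for its contacts, had 942 and 1056 counts in ESCs and 1733 and 1460 in NECs. SEMA3D, SEMA3F, SEMA4D, SEMA6D and SEMA7A did not pass.

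Plexins, the semaphorin receptors, had 3 of 9 called higher and none called lower by edgeR. PLXNA2 rose from 73 and 212 counts to 748 and 851 (log2 fold change 2.46 ± 0.32, edgeR adjusted p = 0.000948). The ESC libraries differed widely while the NEC libraries lay close together, and both NEC counts were above both ESC counts. PLXNA4 rose from 30 and 38 counts to 123 and 206 (log2 fold change 2.17 ± 0.28, edgeR adjusted p = 0.000972). PLXNC1, the receptor of SEMA7A, rose from 171 and 117 counts to 497 and 604 (log2 fold change 1.81 ± 0.28, edgeR adjusted p = 0.00203), and without ESC replicate 2 its log2 fold change was 1.39. The sequence before the PLXNA2 start is chr1:208417730-208417979 of GRCh37 on the minus strand, shown 5′ to 3′ because this promoter gained the strongest new contact of the set, with GGGCGG in capitals.
PLXNA2 promoter: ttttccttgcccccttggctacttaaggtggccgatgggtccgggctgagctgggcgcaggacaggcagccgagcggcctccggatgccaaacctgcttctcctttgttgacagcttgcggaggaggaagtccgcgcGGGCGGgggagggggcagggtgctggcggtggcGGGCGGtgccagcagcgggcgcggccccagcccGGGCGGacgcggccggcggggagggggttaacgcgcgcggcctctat

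The plexin with the highest level per length in both cell types was PLXNB2, at 19.8 in ESCs and 29.1 in NECs. PLXNB2 had 3000 and 3190 counts in ESCs and 4506 and 5225 in NECs (log2 fold change 0.55 ± 0.12, edgeR adjusted p = 0.00661). PLXNA3 was likewise higher below the fold threshold, with 543 and 739 counts against 1253 and 1413 (log2 fold change 0.98 ± 0.09, edgeR adjusted p = 0.000276). PLXNA1 was also higher (0.57), while PLXNB3 (-0.89) and PLXND1 (-0.31) were lower, and PLXNB1 did not pass. Leaving aside the 3 called genes, the plexins thus stayed within 1 log2 unit of their ESC level.

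The neuropilins differed in level by far. NRP2 was the higher per length in both cell types, at 8.21 in ESCs and 23.4 in NECs, whereas NRP1 was at 0.31 and 0.49. NRP2 rose from 2457 and 2422 counts to 6624 and 8426, a log2 fold change of 1.52 ± 0.15 (edgeR adjusted p = 0.000340). That value was just past the threshold, and it was 1.49 with DESeq2's size factors or DESeq2's test, 1.32 without ESC replicate 2 and 1.44 without NEC replicate 2. NRP1 had 76 and 77 counts in ESCs and 129 and 128 in NECs (log2 fold change 0.66 ± 0.24, edgeR adjusted p = 0.0516), and missed the test although its libraries did not overlap. The NRP2 promoter window, chr2:206546975-206547224 on the plus strand of GRCh37, holds GGGCGG on one strand and a pair of overlapping CCGCCC matches, and is shown because the farthest run of new contacts started from this bait.
NRP2 promoter: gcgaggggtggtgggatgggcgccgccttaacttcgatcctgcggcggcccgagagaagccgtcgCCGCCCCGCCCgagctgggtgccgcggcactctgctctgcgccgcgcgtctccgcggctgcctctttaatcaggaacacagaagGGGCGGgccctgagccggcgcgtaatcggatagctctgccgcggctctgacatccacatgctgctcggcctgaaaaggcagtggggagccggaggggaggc

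All 3 Slits, the secreted ligands of the Robos, were called higher. SLIT1 rose from 18 and 23 counts to 660 and 262 (log2 fold change 4.45 ± 0.58, edgeR adjusted p = 0.00101). SLIT3 rose from 30 and 28 counts to 585 and 140 (log2 fold change 3.61 ± 0.77, edgeR adjusted p = 0.00697). In both genes NEC replicate 1 was far above NEC replicate 2. Neural crest markers were also higher in NEC replicate 1, at 227 against 81.8 CPM, as were neuroectoderm markers, at 704 against 534 CPM. Pluripotency markers were lower there, at 415 against 807 CPM. The part of these differences in the SLIT1 and SLIT3 values was not tested. SLIT2 was even between the replicates, with 262 and 348 counts in ESCs and 975 and 923 in NECs (log2 fold change 1.57 ± 0.13, edgeR adjusted p = 0.000200), and without NEC replicate 1 it was at 1.42. SLIT2 was the highest Slit per length, at 1.26 in ESCs and 3.75 in NECs. SLIT1 lies inside the annotated span of ARHGAP19 on the same strand, so some of its reads are uncertain. Its promoter window, chr10:98945717-98945966 on the minus strand of GRCh37, is shown for comparison with that of EPHB3, the other gene with a log2 fold change over 4.
SLIT1 promoter: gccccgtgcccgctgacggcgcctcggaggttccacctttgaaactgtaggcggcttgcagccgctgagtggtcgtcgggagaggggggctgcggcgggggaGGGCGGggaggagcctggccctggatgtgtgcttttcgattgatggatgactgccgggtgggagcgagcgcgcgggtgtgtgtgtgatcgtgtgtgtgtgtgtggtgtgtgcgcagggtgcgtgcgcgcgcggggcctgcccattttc

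Among the Robo receptors, ROBO2 and ROBO3 were called higher. ROBO2 rose from 54 and 47 counts to 459 and 361 (log2 fold change 2.94 ± 0.29, edgeR adjusted p = 0.000338). ROBO3, which modulates Slit responses at the midline, rose from 142 and 173 counts to 836 and 536 (log2 fold change 2.07 ± 0.28, edgeR adjusted p = 0.00122). ROBO1 remained the Robo with the highest level per length, at 13.1 in ESCs and 11.8 in NECs, and its counts of 2954, 3270, 2946 and 3027 did not pass the test (log2 fold change -0.15 ± 0.12). ROBO4, the endothelial member, had 1 and 2 counts in ESCs and 0 in both NEC libraries, where a count of 0 allows up to 3 reads, and was not tested.

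Promoter sequence was compared over the 53 members that matched the RefSeq table. GGGCGG, a letter string searched on both strands from 250 bases before to 50 after the start, occurred in 43 of them (81.1%), against 44.6% of all 27305 promoters of the table. The median ratio of observed to expected CpG dinucleotides was 0.716 in members and 0.58 over all promoters. Median GC content was also higher in members, at 66.7% against 58.3%. The part of GC content in the share with GGGCGG, a string of only G and C, was not tested. A match is a description of these windows and not a binding site.

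Guidance genes outside the set were also more often called higher than lower. Of 24 tested netrins, netrin receptors, repulsive guidance molecules and related surface proteins, 14 were called higher and 4 lower, with a median log2 fold change of 1.93. Over all tested genes, 11.4% were called higher and 9.68% lower. BOC, a Hedgehog co-receptor that also acts in axon guidance, had 97 and 103 counts in ESCs and 7323 and 4942 in NECs (log2 fold change 5.88). The netrin receptor UNC5C had 25 and 21 counts against 546 and 376 (log2 fold change 4.25). The adhesion molecule CHL1 had 1 count in each ESC library and 122 and 62 in NECs, so that no ratio is given. Those that fell included RET, with a log2 fold change of -1.77, UNC5D, at -1.65, and DSCAM, which had 16 and 25 counts in ESCs and 1 and 2 in NECs.

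Intracellular effectors of guidance signals had a median change closer to that of all genes. Of 39 tested, 9 were called higher and 3 lower, beside 11.4% and 9.68% of all tested genes. The median log2 fold change of the effectors was 0.23. The Slit-Robo GTPase-activating protein SRGAP3 (log2 fold change 3.56), the collapsin response mediator DPYSL5 (2.99) and the ephexin NGEF (2.79) rose most. VAV3 (-1.68) and PAK1 (-1.56), both of which act on Rac signalling, and the small GTPase RHOD (-1.59) fell.

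Promoter contacts of the guidance genes were read from the interaction lists. The partner fragment of a bait is named its promoter-interacting region (PIR), and every listed pair has a CHiCAGO score of at least 12, a negative log of a p-value that was weighted by distance. Since the lists give scores without reads, the depth of a single call is unknown. In the merged calls the 56 member baits had 363 PIRs in ESCs and 440 in NECs, while all baits had 99302 and 99181. These are counts per bait, in which a pair of baits can count from each end. They are therefore not the numbers of distinct interactions that the paper reports. In separate replicates the members had 277 and 284 calls in ESCs and 382 and 302 in NECs. The higher number in NECs stood in both replicates, although NEC replicate 2 had the fewest calls of all replicates over all baits, 81168.

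Of the members' merged PIRs, 169 were the same fragment in both cell types, which is 46.6% of those in ESCs and 38.4% of those in NECs. These shares were near those over all baits, 44.2% and 44.3%. Median distance from the bait, taken between fragment centres, went from 197 kb to 253 kb in members and from 196.5 kb to 217 kb over all baits. PIRs that overlapped no protein-coding gene, named between genes below, made up 32.0% of the members' same-chromosome PIRs in ESCs and 42.4% in NECs. They may still hold other annotated genes, and no such share was taken over all baits. PIRs that were themselves baits fell in share from 26.2% to 20.7%, where all baits stood at 31.7% in both.

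Both NEC replicates had more PIRs than both ESC replicates at 15 member baits and fewer at 5, whereas such separation was found at 13.2% and 12.9% of all baits. The 15 were EPHA5, EPHA6, EPHA7, EPHB1, EPHB3, EFNA1, EFNB2, SEMA3D, SEMA3E, SEMA5B, PLXNC1, NRP2, SLIT1, SLIT2 and ROBO3. SLIT2 was the clearest, at 4 and 5 in the ESC replicates against 18 and 15 in the NEC replicates. SEMA3D had 2 and 3 in ESCs and 10 and 7 in NECs. EPHA7 had 2 and 3 in ESCs and 13 and 6 in NECs. Even the nearest replicates of these 3 promoters were at least 3 PIRs apart. NRP2 had 5 and 14 in ESCs and 18 and 19 in NECs. SLIT1 had 4 and 3 against 12 and 7. PLXNC1 had 4 and 6 against 11 and 10, and SEMA5B 3 and 6 against 9 and 13. At EPHB3 (18 and 16 against 20 and 29), EPHB1 (1 and 5 against 8 and 7), EFNB2 (5 and 4 against 7 and 7), SEMA3E (0 and 1 against 4 and 3) and ROBO3 (2 and 1 against 4 and 5) the nearest replicates were 2 apart. They were 1 apart at EPHA5 (2 and 1 against 3 and 3) and EFNA1 (1 and 2 against 4 and 3), whose merged calls went the other way, from 1 to 0 at EPHA5 and from 8 to 6 at EFNA1. The bait of EPHA6, also 1 apart, had 2 and 1 in ESCs but 18 and 3 in NECs, so that its difference rested mostly on NEC replicate 1.

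**Figure D3:**
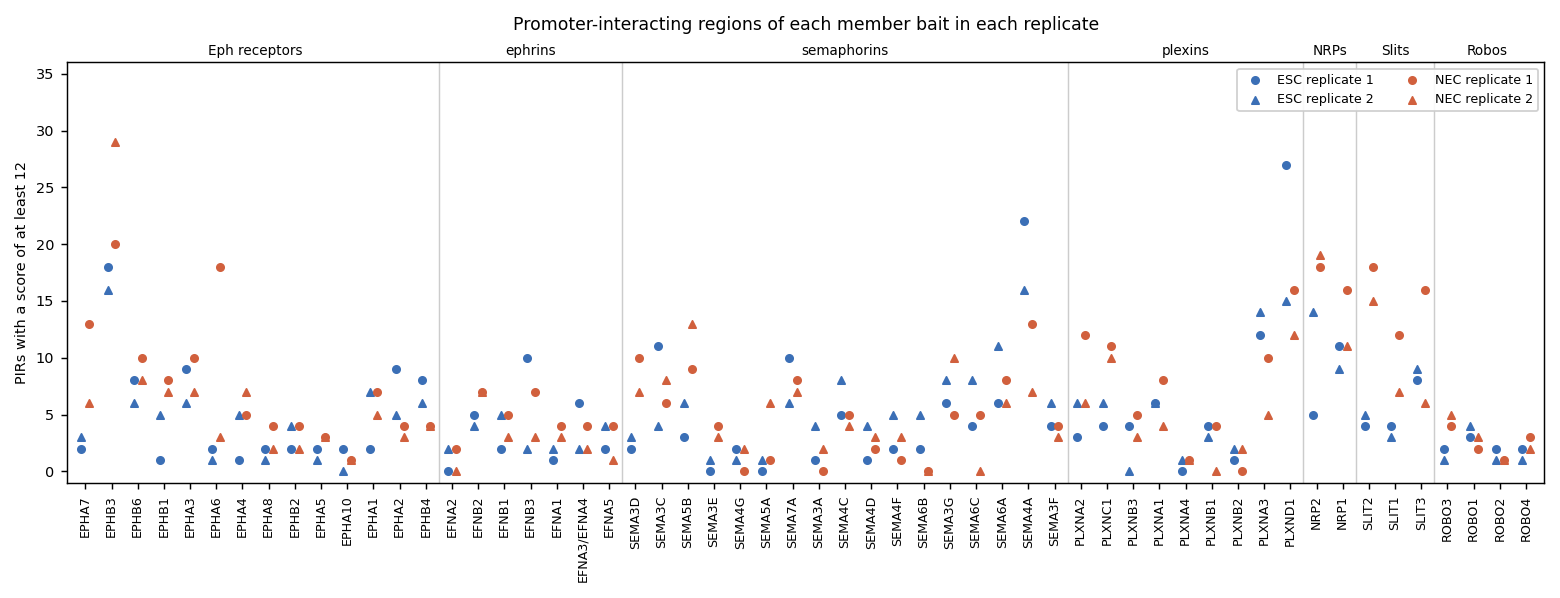
Number of PIRs with a score of at least 12 (vertical axis) at each of the 56 member baits in each replicate, ordered within a family by the difference between merged calls. Orange points lie above blue ones at SLIT2, SEMA3D and EPHA7 and below them at SEMA4A, PLXNA3 and SEMA6B, and at most other baits the colours mix.

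The 5 baits with fewer PIRs in NECs were EPHA2, EPHB4, SEMA4A, SEMA6B and PLXNA3. Other genes also started in the baits of EPHA2 (RP11-276H7.2), EPHB4 (SLC12A9) and SEMA6B (LRG1 and PLIN5). SEMA4A had 22 and 16 in ESCs and 13 and 7 in NECs. PLXNA3 had 12 and 14 against 10 and 5, and EPHA2 had 9 and 5 against 4 and 3. SEMA6B had none in either NEC replicate, after 2 and 5 in ESCs, although both merged lists had 2, and EPHB4 had 8 and 6 against 4 and 4. PLXND1, the receptor of SEMA3E, lost most in the merged calls, from 36 to 22, but its replicates overlapped at 27 and 15 against 16 and 12.

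Individual interactions were then sorted by replicate. An interaction was taken as gained when called in both NEC replicates and neither ESC replicate, lost in the reverse case, and retained when called in all 4. Members had 37 gained interactions at 20 baits, 20 lost at 15 baits and 38 retained at 17 baits. Over all baits, 20.2% had a gained, 21.7% a lost and 18.3% a retained interaction. Member baits also had more PIRs to sort. Among baits with at least 1 merged PIR, the median number was 5.5 in ESCs and 6.0 in NECs for members. Over all baits it was 3.0 in each cell type. The part of this difference in the counts of gained, lost and retained interactions was not tested. A score just under 12 in one replicate is not listed, so a gained or lost call may be a small difference in score.

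EPHB3 had the most PIRs of any member in NECs and 11 of the 38 retained interactions. These 11 lay between chr3:184444289 and chr3:184515393, 168 to 231 kb downstream of the bait, and overlapped no protein-coding gene. Merged scores ranged from 16.4 to 29.0 in ESCs and from 21.1 to 51.2 in NECs, and they were higher in NECs at 10 of the 11. The exception was the fragment at chr3:184468733-184482887, with 27.4 in ESCs and 25.3 in NECs. At the highest-scoring fragment, chr3:184496707-184498329, the replicates had 15.4 and 17.6 in ESCs and 33.5 and 25.3 in NECs. Its first 60 bases, with the HindIII site in capitals, are set beside those of the bait, which starts at chr3:184275459, because this pair was the strongest in the set.
EPHB3 bait: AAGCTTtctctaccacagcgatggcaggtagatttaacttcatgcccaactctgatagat
EPHB3 PIR: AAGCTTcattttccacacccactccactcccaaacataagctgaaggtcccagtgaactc

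In the merged calls EPHA7 had 10 PIRs in ESCs, 21 in NECs and none in common. All 10 merged ESC PIRs lay on the downstream side and all 21 merged NEC PIRs upstream. The ESC side had little replicate backing, with only 2 and 3 PIRs in the separate ESC replicates. EPHA7 had 0 lost interactions by the replicate rule, so a full exchange of contacts was not replicated. The 4 gained interactions were 630 to 842 kb away, between genes, with merged NEC scores from 16.5 to 19.4, and 2 of them were neighbouring fragments at chr6:94961851-94970587. SLIT2, which rose with it, also had a far upstream side: 1 retained PIR at 1562 kb with merged scores of 14.5 in ESCs and 21.2 in NECs, and 1 gained PIR at 1590 kb with a score of 17.7.

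NRP2 gained 5 interactions and lost 1. Of the gained ones, 4 were adjacent fragments at chr2:205178495-205192833, a stretch of 14.3 kb about 1360 kb upstream, with merged NEC scores between 14.8 and 22.9. The highest, chr2:205188203-205190885, had scores of 24.6 and 13.4 in the NEC replicates. The lost interaction, 678 kb away, was in an intron of PARD3B. Fragment starts for the bait at chr2:206543284 and for this PIR are given with the HindIII site in capitals.
NRP2 bait: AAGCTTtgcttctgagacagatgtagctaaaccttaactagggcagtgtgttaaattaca
NRP2 PIR: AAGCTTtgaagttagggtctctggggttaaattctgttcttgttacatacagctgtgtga

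Its paralogue NRP1 gained 4 interactions, 3 of them adjacent fragments at chr10:34917599-34933256 in an intron of PARD3, 1294 to 1304 kb upstream, with merged NEC scores from 14.3 to 20.7. Thus both neuropilin promoters had new contacts over more than 1 Mb, and NRP1 had partners in PARD3 where NRP2 had its lost one in the paralogue PARD3B. NRP1 also kept a PIR in an exon-bearing fragment of PARD3 at 1089 kb in all 4 replicates, with merged scores of 14.7 and 15.2. In number, NRP1 had 11 and 9 PIRs in ESC replicates and 16 and 11 in NEC replicates, which touch at 11. The PIR with the highest score and the NRP1 bait at chr10:33621192 begin as follows.
NRP1 bait: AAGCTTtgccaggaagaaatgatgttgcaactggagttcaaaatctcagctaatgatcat
NRP1 PIR: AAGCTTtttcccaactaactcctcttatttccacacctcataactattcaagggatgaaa

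The highest-scoring gained interaction of the set was at PLXNA2, 967 kb upstream at chr1:209381084-209383770, between genes. It scored 25.4 and 18.7 in the NEC replicates and 28.9 in the merged NEC calls, and was in none of the ESC lists. The PLXNA2 bait went from 3 to 16 merged PIRs, all 3 ESC ones kept, while its replicates had 3 and 6 against 12 and 6. That PIR and the bait at chr1:208411486 begin as follows.
PLXNA2 bait: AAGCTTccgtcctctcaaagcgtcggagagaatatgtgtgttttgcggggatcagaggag
PLXNA2 PIR: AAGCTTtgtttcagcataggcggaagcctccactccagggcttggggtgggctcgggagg

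**Figure D4:**
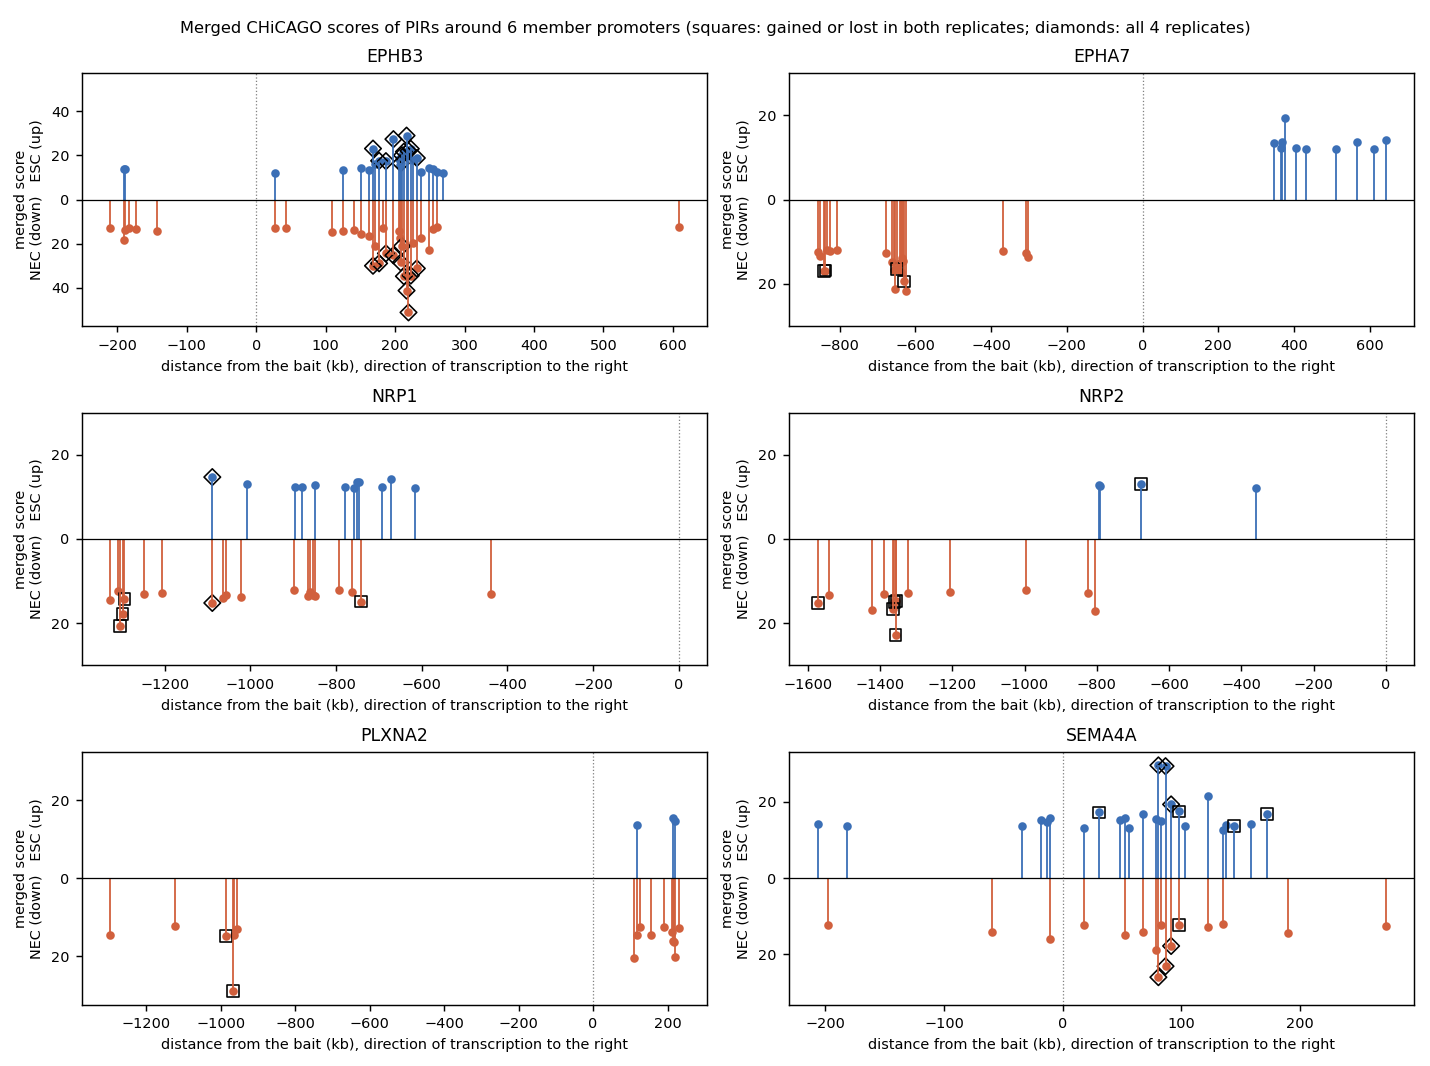
Merged CHiCAGO scores (vertical axis, ESC upward in blue and NEC downward in orange) of the PIRs of 6 members against distance from the bait in kb, with the direction of transcription to the right, squares for gained or lost and diamonds for retained interactions. The EPHB3 contacts pile up near 200 kb in both cell types with higher NEC scores, those of EPHA7 change side, the gained ones of NRP2 and all but 1 of NRP1 lie beyond 1200 kb, and SEMA4A has its lost ones only on the ESC side apart from 1 that is also in the merged NEC calls.

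Other gained contacts touched further members or sites between genes. SEMA3D, a secreted semaphorin that did not pass the expression test (86 and 131 counts against 107 and 95), went from 2 to 18 merged PIRs and gained 2 interactions at 561 and 635 kb upstream, with merged scores of 18.3 and 18.8. SEMA3E gained a PIR inside SEMA3D, 1369 kb away (merged NEC score 15.7). EPHA1 gained a contact with the EPHB6 bait at 555 kb, with 13.4 and 12.5 in NECs, and from the EPHB6 end the same pair was called in ESC replicate 1 (12.4), NEC replicate 1 (17.7) and the merged NEC calls (15.2). EFNA1 and the shared bait of EFNA3 and EFNA4 were linked only in the merged NEC calls, at a score of 12.8.

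Single gained interactions were also called at EPHA3, EPHA4, EPHA6, EPHB1, EFNB2, SEMA4C, PLXNC1 and SLIT3. That of EPHA4, 1856 kb away, was absent from the merged NEC calls. The longest was that of EPHA6, 2454 kb away, at 19.6 and 12.7 from NEC replicates 1 and 2, although EPHA6 counts were lower in NECs. EPHB1 gained one at 1129 kb between genes, with 15.1 and 13.0. PLXNB3 gained 2 at 162 and 204 kb, the farther one at the promoters of HCFC1 and TMEM187. EPHB6 gained 2, at TAS2R39 and between genes 354.5 kb away. The TAS2R39 contact was also in the merged ESC calls, at 12.1 against 15.7 in NECs. SEMA5B gained 2, one in its own intron at 68.2 kb, where the merged ESC calls also had a score of 12.6 against 18.1 in NECs.

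SLIT1 drew most of its contacts from its own gene, with 15 of 17 merged PIRs in ESCs and 20 of 25 in NECs. A retained intronic PIR, 110 kb from the bait, had merged scores of 29.8 in ESCs and 40.4 in NECs, while the other retained PIR, 118 kb away, went from 21.7 to 16.01. The 2 gained ones were also intronic, at 46.1 and 106 kb, and both were present in the merged ESC calls at lower scores, 14.4 and 13.0 against 17.9 and 21.7. SLIT3 kept 2 contacts and gained 1 within its own gene. EFNB2 kept 1 PIR at 585 kb, with 26.1 in ESCs and 36.1 in NECs, the highest merged NEC score among retained contacts outside EPHB3 and SLIT1.

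Losses were led by SEMA4A, with 4 of the 20. They lay 30.7 to 172 kb downstream, and the farthest, in CCT3, had 15.3 and 13.8 in the ESC replicates. SEMA4A also had 3 retained interactions in the genes PMF1 and PMF1-BGLAP, with merged scores from 19.3 to 29.6 in ESCs and from 17.8 to 25.95 in NECs, lower in NECs at each. PLXND1 and SEMA6C lost 2 each. PLXND1 kept 5 more, and its lost ones were at 273 and 305 kb, around TMCC1. EPHA8 lost a contact with the promoter of the signalling gene WNT4, 418 kb away, which had scored 15.9 and 15.7. SEMA3F lost no interaction by this rule, although its merged PIRs went from 12 to 2, and EFNA5 likewise went from 8 to 1 while its expression rose. The replicates of both baits overlapped. SEMA3F had 4 and 6 PIRs in ESCs against 4 and 3 in NECs, and EFNA5 had 2 and 4 against 4 and 1.

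The remaining losses were single interactions at EPHA3, EPHB2, EPHB6, EFNB3, SEMA3G, SEMA4C, SEMA6B, PLXNA1, PLXNA3, PLXNB1 and NRP2. Of these, EPHB2, EFNB3 and NRP2 were called higher in expression. The lost interactions of EFNB3 and SEMA3G were still in the merged NEC calls, at 12.35 and 12.95, against 17.8 and 18.7 in ESCs. That of PLXNA1 was in neither merged list. Retained interactions outside those already named were at EPHA2 (2), EFNB1, SEMA3F, SEMA3G, SEMA5B, SEMA7A (2), PLXNA1, PLXNA3 and PLXNC1 (2). PLXNC1, with 4 and 6 PIRs in ESC replicates and 11 and 10 in NEC replicates, kept its 2 at 378 and 395 kb and gained the one next to the first, which scored 13.0 in the merged ESC calls and 19.02 in NECs. The ROBO1, ROBO2, SEMA3A, SEMA4D and PLXNA4 baits had no merged PIR in either cell type. They were not without calls, since their numbers in separate replicates ran from 0 to 4. For ROBO2, SEMA4D and PLXNA4 the RefSeq promoter window was not found whole in the bait.

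Expression and contact number were set side by side for the 57 members with a bait. Of the 22 members called higher, 17 had more merged PIRs in NECs, 1 fewer (EFNA5) and 4 the same number, and for 10 the replicates were separated in that direction. Over all 1672 genes called higher that start in a bait, 51.5% had more, 31.0% had fewer, and 20.3% had separated replicates. Of the 5 members called lower, 3 had fewer, 1 had more (EPHA6) and 1 had the same number. Over all 1335 genes called lower that start in a bait, 41.7% had fewer and 36.5% had more. Spearman's rho between log2 fold change and the difference in merged PIRs was 0.51 over 56 members and 0.09 over 15252 genes, given as a description because the points share the same libraries and EFNA3 and EFNA4 share a bait.

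**Figure D5:**
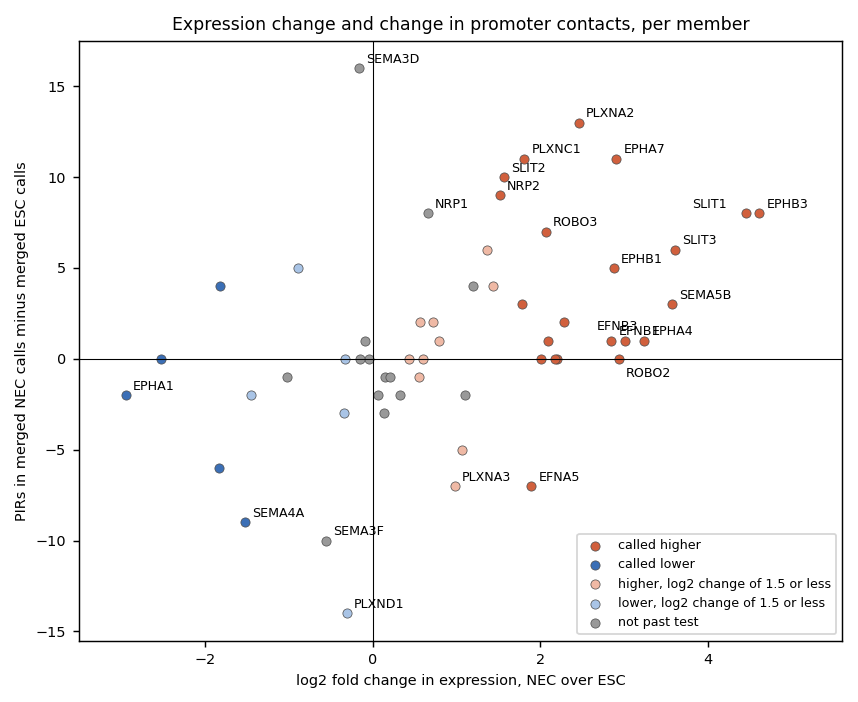
Each point is a member, with its log2 fold change in expression (NEC over ESC, horizontal axis) and the difference in merged PIRs (NEC minus ESC, vertical axis), coloured by the expression call. Most orange points, the 22 called higher, lie at or above 0 on the vertical axis with EFNA5 at -7 as the exception, while SEMA3D at 16 and NRP1 at 8 gained PIRs without a call in expression.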

How the data were processed

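PCHi-C and RNA-seq of ESCs and NECs (2 biological replicates each) were used, and conventional Hi-C was not analysed here. The authors trimmed single-end reads, mapped them to GRCh37 with TopHat (the submitters' processing notes name TopHat2 2.0.8b and Bowtie 1.0.0) and deposited raw counts per gene on the Ensembl v70 set without strand. The PCHi-C lists the authors deposited hold CHiCAGO scores of at least 12 per replicate and for merged replicates, from reads mapped to GRCh37 without duplicates.

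Genes were kept by filterByExpr (minimum count 10), scaled by TMM and tested with edgeR 4.0.16 in R 4.3.3. DESeq2 1.42.0 was an alternative. A call required a Benjamini-Hochberg adjusted p below 0.05 together with a log2 fold change over 1.5 in size. Levels per length divide TMM-scaled CPM by the kilobases of annotated exons. Python 3.11.15 with pandas 2.3.3, pysam 0.24.0 and matplotlib 3.10.9 was used for interactions and figures, and the expression test was tested on simulated data first. Baits were matched by the annotated start in GRCh37, and all 1105 fragments of member interactions began and ended at a HindIII site. Of 57 members with a bait, 40 had their RefSeq promoter window unchanged in it and 6 had no RefSeq entry. The window was not found whole in the bait for the other 11. These were EPHB1, EPHB6, EFNA3, EFNA4, SEMA4D, SEMA5B, PLXNA1, PLXNA4, PLXNC1, ROBO2 and ROBO4. Contacts given for them are those of the annotated start, which may not be the RefSeq promoter. The p-values measure the spread between replicates labelled biological.

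Members and lists were chosen with earlier results of these data known. Values per library are given for called members with an average log2 CPM of at least 1. They are also given for the highest member per length of each family and for baits with separated PIR numbers. PIRs are described for the baits with most PIRs and with the largest gains and losses. Each bait with a gained or lost interaction is named, but not every such PIR is located. EPHA6, EPHA3, EFNA1 and others outside these rules were named after their values were seen. Alternatives were other scalings, tests, filters and fold thresholds, a replicate block, leaving out each replicate, a score of 15, PIRs shared within 10 kb, PIRs within 2 Mb, and other choices of bait and gene length.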

Additional observations from a re-analysis of the deposited data

How the results depend on the processing

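No member past the test turned direction under any alternative, but 7 of the 15 members that did not pass did. Scaling by library size alone turned SEMA4D to 0.018. With a library left out, log2 fold changes ran from -0.368 to 0.973 for EPHA10, -0.058 to 0.79 for EFNA3, -0.086 to 0.206 for EFNA4, -0.354 to 0.016 for SEMA3D, -0.122 to 0.033 for SEMA4D, -0.103 to 0.828 for SEMA6D and -0.277 to 0.085 for SEMA7A. Among 58 members, 10 crossed the call's threshold when 1 library was left out and 5 under 6 other settings. Members called lower were 11 with no fold threshold and 3 to 5 when a library was left out, and members called higher stayed between 21 and 23 under other scalings. Effectors became 18 higher and 7 lower with no fold threshold, and 1 to 3 lower with a library left out; other guidance genes called lower were 2 at a minimum count of 30. Replicate numbers did not pair the libraries (correlation of same-numbered deviations 0.061), and the replicate block gave 23 members higher and 4 lower, losing SEMA4A (-1.47) and adding EPHA3 (1.55). The leading gene per length of each family was the same in 14 of 14 cases with the longest transcript as length.

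A score of at least 15 left 103 merged PIRs in ESCs and 143 in NECs, 9 baits with more and 2 with fewer PIRs, and 12 gained, 5 lost and 13 retained interactions. With PIRs shared within 10 kb, 13 were lost, and at baits with exactly 1 gene start 2 had fewer PIRs. Leaving out a replicate asks fewer calls to hold, and gave 18 to 25 baits with more, 11 to 13 with fewer, 46 to 262 gained, 29 to 181 lost and 47 to 53 retained. The 2 replicates per cell type and unknown read depth of single calls limit all of these counts, and the cause of other shifts was not tested.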
